A study of Mus musculus with 43 samples.

Results

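The 10 genes followed here are expressed by GABAergic interneurons of the cortex or mark their lineage: the neuropeptides Npy and Sst, the transcription factors Lhx6, Dlx1, Dlx2 and Dlx5, the GABA genes Gad1, Gad2 and Slc32a1, and the relaxin receptor Rxfp1. They were taken by gene name from the count table, where each matched 1 of the 56980 genes, and were chosen with results of these data known: on the values at P4, where Npy and Lhx6 were higher in the Cux1 KO libraries than in WT. The Cux1 KO values at P4 are therefore given as a description, without a test, and tests are kept to the other comparisons. The WT males of P4 are the other side of that contrast, so every test below that includes them is not independent of the choice of genes, least of all for Npy and Lhx6.

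RNA-seq was available for 43 libraries of GFP+ cells, which had been labelled by in utero electroporation of upper-layer progenitors and sorted from the somatosensory cortex of C57BL/6JRccHsd mice. At E19 there were 4 libraries per sex of WT, Cux1 KO (germline Cux1ΔC/ΔC, without the C-terminal part of the gene) and Cux2 KO (germline Cux2-/-) neurons, all electroporated with pCAG-GFP alone. At P4 there were 3 libraries per sex of WT and of Cux2 KO, again with pCAG-GFP, and 2 male libraries of Cux1 KO. The latter came from Cux1 f/Δ23 mice electroporated with pCALNL-GFP and pCAG-iCre, so that GFP and the loss of the floxed allele both depended on CRE and the neighbours of a labelled cell stayed heterozygous. Allele, plasmids and genotype cannot be told apart in that group, which has no females and stands here without a CRE-only group. At P7 there were 2 female and 3 male WT libraries. The E19 libraries were sequenced in one round and those of P4 and P7 in another, so stage and round cannot be told apart between E19 and the later stages. No label says whether the libraries of a group came from different animals, and p-values measure the spread between libraries. The smallest and largest library held 13321095 and 20715732 counts among those of E19, 19499125 and 60559585 among those of P4, and 15312029 and 27633827 among those of P7. Levels are given as CPM (the share of a library's counts, on a common scale) after TMM scaling for library size, as mean ± SD over the n libraries of a group.

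Cortical interneurons are born in the ganglionic eminences of the ventral forebrain and migrate into the cortex, whereas L2/3 excitatory neurons are born from dorsal progenitors. DLX transcription factors act early in all GABAergic lineages of the forebrain and switch on the genes for glutamate decarboxylase. LHX6 is the factor that specifies interneurons of the medial ganglionic eminence, among which are the cells that make somatostatin and many of those that make neuropeptide Y. GAD1 and GAD2 make GABA from glutamate and the transporter encoded by Slc32a1 loads it into synaptic vesicles, while RXFP1 is a receptor of relaxin. In bulk RNA of sorted cells, fewer cells of a type and less RNA per cell cannot be told apart, and this holds for each level below.

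In GRCm39, 6 of the 10 genes lie on chromosome 2. Npy (ENSMUSG00000029819) spans chr6:49799026-49806489 on the plus strand and Lhx6 (ENSMUSG00000026890) spans chr2:35971964-35995601 on the minus strand. Gad1 spans chr2:70383416-70432372, Gad2 chr2:22511862-22583886 and Slc32a1 chr2:158452605-158464883, all on the plus strand. Dlx1 (chr2:71358457-71364325, plus strand) and Dlx2 (chr2:71373752-71377102, minus strand) are neighbours that point toward each other. Dlx5 (chr6:6877804-6882092), Sst (chr16:23707321-23711733) and Rxfp1 (chr3:79548868-79645280) are on the minus strand. All are protein-coding genes, and the counts are for whole genes. The antisense RNA Dlx1as shares 3251 exon bases with Dlx1 on the opposite strand, Gm14205 shares 697 and Gm14204 302 with Slc32a1, and Gad1os shares 99 with Gad1. The strand setting of the counting is not given in the sources used here, so the counts of Dlx1, Slc32a1 and Gad1 may include reads of these partners and are uncertain to that extent. Lhx6 shares 104 exon bases with the RNA gene Gm56460 on the same strand, where no strand setting can tell the reads apart.

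The labels name the cells as excitatory neurons of L2/3, and markers of such neurons were high at E19 and low at P4 and P7. The 14 upper-layer excitatory markers summed to group medians of 5219 to 5781 CPM at E19. At P4 the same sum came to 1094 CPM among WT females and 1113 among WT males (medians, n = 3 each). Slc17a7, the vesicular glutamate transporter of cortical neurons, averaged 0.0147 ± 0.0255 CPM among WT females and 0.104 ± 0.180 among WT males at P4. The 7 markers of astrocytes and radial glia summed to 4720 and 3912 CPM for WT females and males at P4 and to 10887 and 8622 at P7, against 1596 to 1909 at E19, with Slc1a3 the most abundant in each postnatal group. The 22 interneuron markers, which include 9 of the 10 genes, summed to group medians of 602 to 937 CPM at E19, and in WT to 2157 (females) and 1642 (males) at P4. At P7 the interneuron markers summed to 1183 and 1365 CPM. Excitatory, glial and interneuron markers thus each differed between stages, and their part in the results on the 10 genes was not tested.

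**Figure D1:**
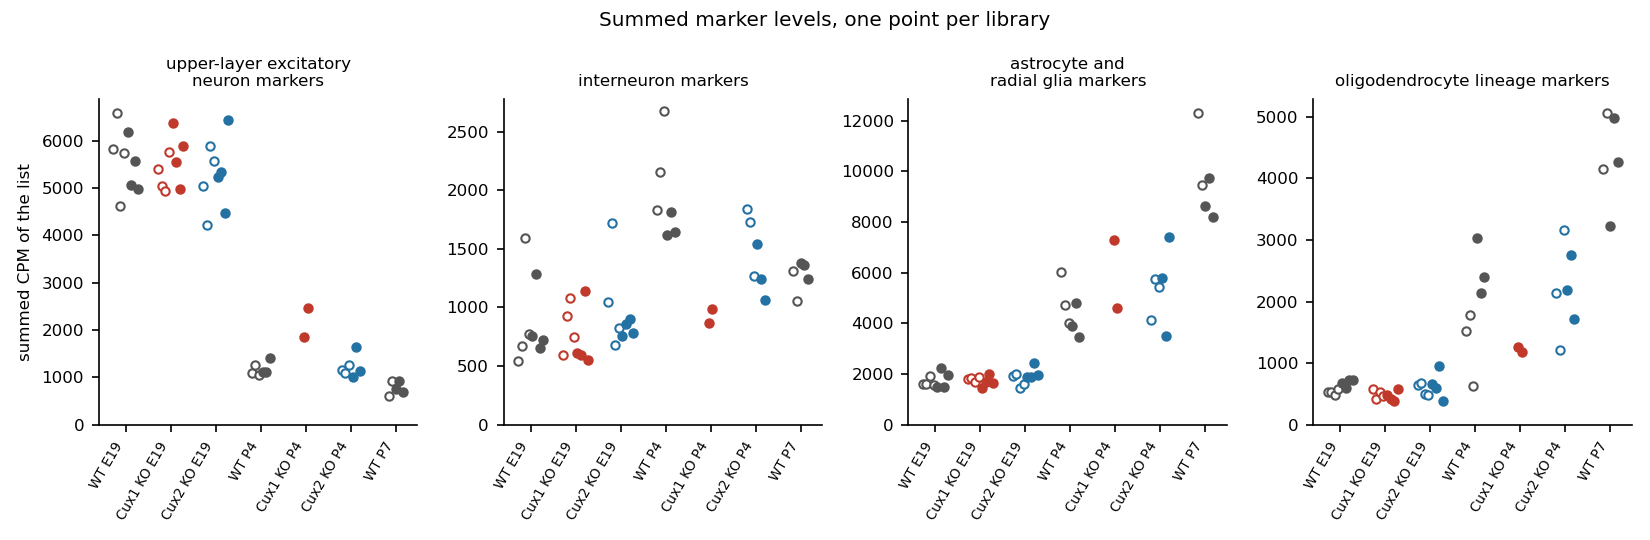
Summed TMM-normalized CPM of the marker lists for upper-layer excitatory neurons, interneurons, astrocytes and radial glia, and the oligodendrocyte lineage (y axes, linear) in each library by genotype and stage (x axis). Each point is 1 library, open for females and filled for males, grey for WT, red for Cux1 KO and blue for Cux2 KO. Excitatory marker sums were lower at P4 and P7 than at E19, and sums for astrocytes and radial glia were higher. Oligodendrocyte sums overlapped, with a WT female at 626 CPM at P4 and a Cux2 KO male at 957 at E19. The 2 Cux1 KO libraries at P4 had interneuron sums of 867 and 990 CPM.

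In WT neurons of both sexes together, the DLX genes had the highest mean levels per kilobase of exon at every stage and Rxfp1 the lowest at E19 and P4, though in E19 males Npy (19.5 ± 4.10) was above Dlx5 (14.2 ± 8.54). At E19 (n = 8, both sexes), the order was Dlx2 (41.0 ± 21.8 CPM per kilobase), Dlx1 (24.9 ± 14.0), Dlx5 (15.0 ± 9.88), Npy (14.2 ± 6.97), Gad2 (9.23 ± 3.90), Gad1 (5.08 ± 3.50), Lhx6 (3.00 ± 1.58), Slc32a1 (2.41 ± 1.38), Sst (0.540 ± 0.378) and Rxfp1 (0.0243 ± 0.0325). Between neighbours in this order the means differed by less than the larger of their SDs, apart from the steps from Gad2 to Gad1, from Slc32a1 to Sst and from Sst to Rxfp1. The order of the GABA genes depends on the length used: per kilobase of the longest transcript Gad1 (11.9) was above Gad2 (9.76) at E19. At P4 (n = 6), Dlx2 (62.7 ± 35.5), Dlx5 (40.9 ± 15.2) and Dlx1 (34.3 ± 18.9) still led, and Lhx6 was at 0.0443 ± 0.0891, below Sst (2.03 ± 2.32) and Slc32a1 (0.274 ± 0.153). At P7 (n = 5), Dlx2 was at 19.1 ± 12.6 and Npy at 7.57 ± 8.06 CPM per kilobase. No Rxfp1 count was found in any WT library at P4.

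Between E19 and P4, Lhx6 and Slc32a1 fell and Dlx5 and Sst rose in WT neurons, in a comparison that includes the WT males on whose low Lhx6 the choice of genes rested. Lhx6 was between 5.89 and 31.1 CPM in the 8 WT libraries at E19, with a median of 11.9. At P4 it was at 1.14, 0 and 0.221 CPM in the females and at 0 in each of the 3 males. Slc32a1 went from 5.18 to 27.5 CPM at E19 to 0.571 to 2.43 at P4, and for both genes the 2 stages did not overlap. In the females alone, which the choice did not use, Lhx6 was at 5.89 to 31.1 CPM at E19 and at most 1.14 at P4. By edgeR's quasi-likelihood test with Benjamini-Hochberg adjustment over all tested genes, two-sided and with sex as a covariate, the log2 fold change (log2FC) was -6.66 for Lhx6 (SE 1.09, adjusted p = 6.61e-05), -3.28 for Slc32a1 (SE 0.417, adjusted p = 5.56e-06), 1.40 for Dlx5 (SE 0.355, adjusted p = 0.00266) and 1.61 for Sst (SE 0.663, adjusted p = 0.0423). A DEG was a gene with an adjusted p under 0.05 and an absolute log2FC over 0.5 at E19 or over 1 in comparisons with P4 or P7, the thresholds of the study's methods. The call for Sst was lost in 9 of 14 fits without 1 library, with log2FC from 1.13 to 1.91. Gad2 had a log2FC of 0.79 (adjusted p = 0.0187), under that fold, and Npy, Gad1, Dlx1 and Dlx2 did not pass. The count of 4 DEGs among the 9 tested genes stands beside 46.3% of all genes tested, and 2 of 9 were without overlap between stages beside 47.9% of all genes. Lhx6, 1 of these 4, passed the expression filter only through the E19 libraries, so its call is a description only.

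The lists around these genes also held genes of both directions between P4 and E19, where 22.6% of all genes rose and 23.7% fell. Of the 6 tested DLX genes and transcripts, 3 rose and none fell, with Dlx6 at a log2FC of 2.40 (adjusted p = 1.37e-05) and Dlx6os1, the long noncoding RNA beside Dlx5 and Dlx6, at 1.88 (adjusted p = 0.000336). Among the 9 tested factors of the medial ganglionic eminence, 3 rose and 3 fell. The rise was in Nxph1 (3.17), Sox6 (1.94) and Erbb4 (1.31), and the genes that fell included Lhx6 and the chemokine receptor gene Cxcr4 (-2.92), which guides migrating interneurons. Of the 7 factors of the caudal eminence, 4 rose, with Sp8 at a log2FC of 3.13 (adjusted p = 2.06e-07), and Nr2f1 fell. The median log2FC of these 3 lists was 0.96, -0.82 and 1.59, beside 0.03 over all genes. Between P4 and P7 none of the 9 tested genes was a DEG by edgeR, beside 2.29% of all genes. Gad1, Gad2, Dlx2 and Dlx5 had an unadjusted p under 0.05, the lowest adjusted p being 0.0594 for Gad2 (log2FC -1.78, SE 0.494), whose libraries were at 53.8 to 185 CPM at P4 and 7.46 to 49.5 at P7. Gad2 alone of the 9 was without overlap, beside 7.34% of all genes, and DESeq2 called 4 of the 9 (Gad1, Gad2, Lhx6 and Dlx2). Lhx6 was at 0 in every WT male at P4, and these males were part of the choice of genes, so its call is a description only. Over the settings run, DESeq2 among them, 179 to 1333 of all genes were DEGs.

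At E19, the neuropeptide Npy was lower in Cux1 KO than in WT males, and the other genes did not pass the test. In the males, Npy was at 19.7, 13.01, 11.2 and 12.8 CPM in Cux1 KO and at 38.8, 28.0, 44.0 and 30.5 in WT, and each Cux1 KO library was below each WT library. Npy fell by 1.33 on the log2 scale (SE 0.192, adjusted p = 0.0367, edgeR, 4 against 4 libraries), which made it 1 of 17 DEGs among 17362 genes (0.0979%), and 6.16% of genes were without overlap in this comparison. The call was lost in 6 of the 8 fits that left out a library (Cux1 KO replicates 2, 3 and 4 and WT replicates 1, 2 and 3), with log2FC from -1.55 to -1.22 and adjusted p from 0.0147 to 0.135, and in the fit of all E19 groups together (adjusted p = 0.460). Markers of the oligodendrocyte lineage summed to 381 to 579 CPM in these Cux1 KO males and 594 to 729.99 in the WT males, and microglial markers to 35.7 to 52.0 and 61.8 to 78.8, both without overlap, and their part in the Npy difference was not tested. In the females, Npy was at 17.6, 12.98, 7.57 and 9.48 CPM in Cux1 KO and at 14.1, 23.3, 4.98 and 22.4 in WT, so the groups overlapped (log2FC -0.45, adjusted p = 0.831). None of the 9 tested genes was a DEG in females, beside 0.0576% of all genes, and none had an unadjusted p under 0.05 or was called by DESeq2. The difference of the Cux1 KO effect on Npy between the sexes did not pass the interaction test (difference 0.89 on the log2 scale, female minus male, adjusted p = 0.962), in which 0% of genes passed by edgeR and 0 by DESeq2, while 697 had an unadjusted p under 0.05. With both sexes in one fit the log2FC of Npy was -0.90 (SE 0.252, adjusted p = 0.128) and no member was a DEG, beside 0.243% of genes.

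For the other 8 tested genes no difference between Cux1 KO and WT passed at E19. Their log2FC in males ran from -0.41 (Slc32a1) to 0.62 (Sst) and in females from -0.40 (Slc32a1) to 0.69 (Sst), and every group overlapped. Lhx6, for instance, was at 15.7, 16.8, 12.6 and 18.3 CPM in Cux1 KO males and at 18.1, 22.7, 12.03 and 11.7 in WT males. The targeted gene was still counted in each Cux1 KO library, and counts of whole genes cannot show the loss of a part. At E19 Cux1 was at 308 ± 22.4 CPM in Cux1 KO females against 415 ± 61.1 in WT females, and at 344 ± 27.3 against 398 ± 74.6 in the males (n = 4 each).

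**Figure D2:**
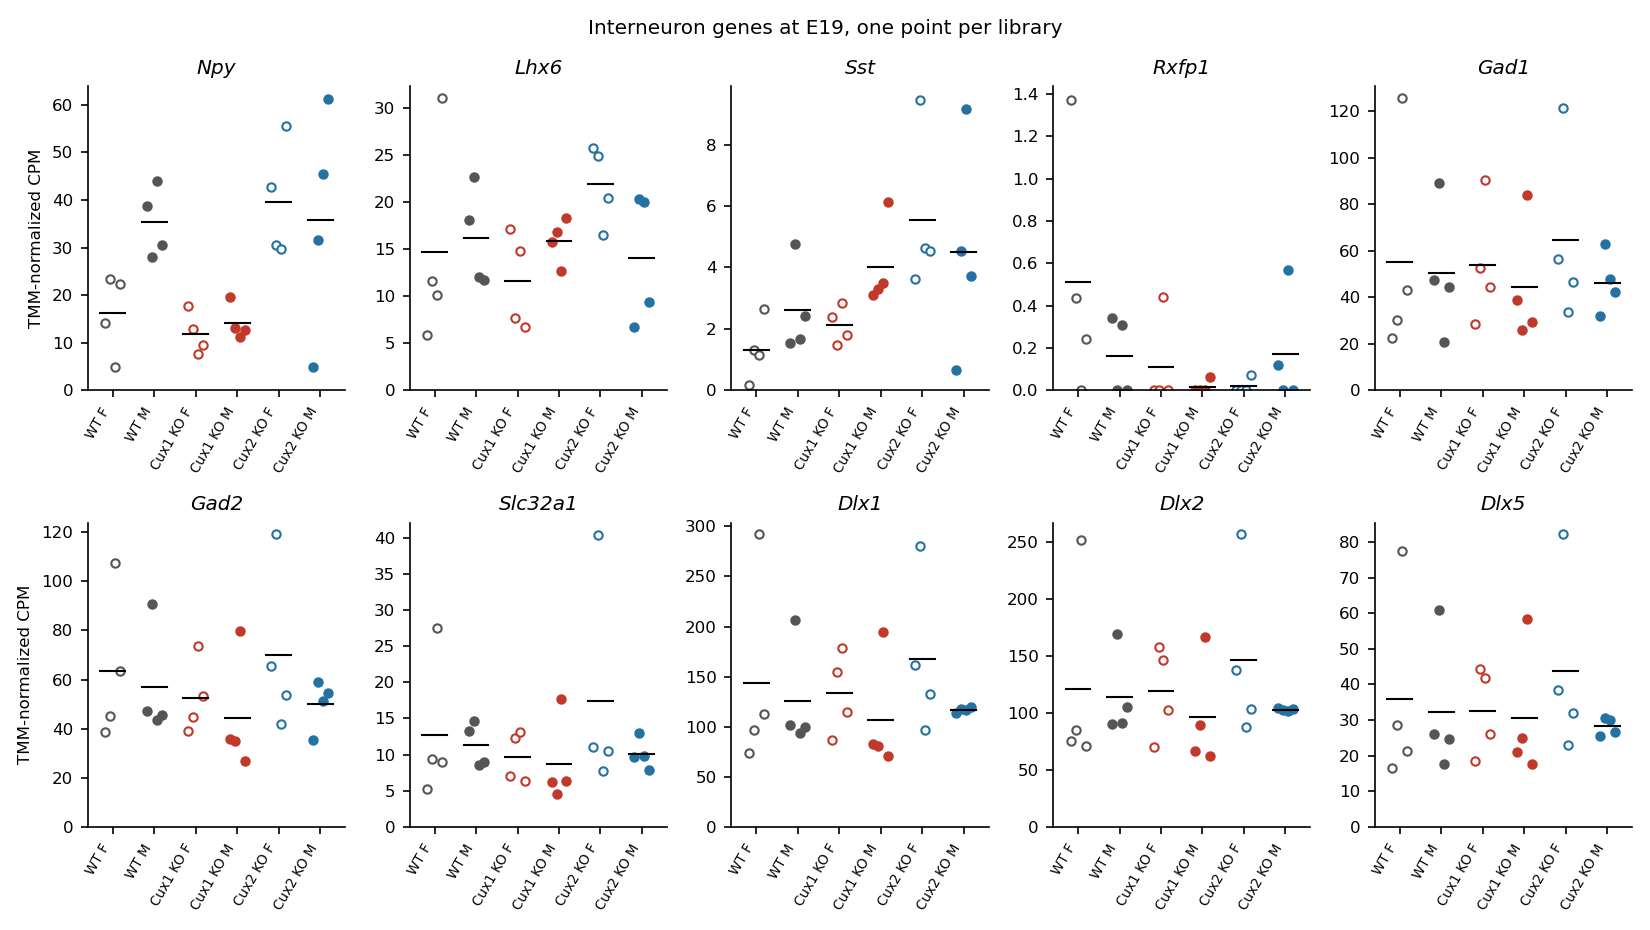
TMM-normalized CPM (y axes, linear, each with its own scale) of the 10 genes in the 24 libraries at E19, by genotype and sex (x axis). Points are libraries, open for females and filled for males, and lines are group means. Npy was at 11.2 to 19.7 CPM in Cux1 KO males and at 28.0 to 44.0 in WT males, and single libraries stood high together for Gad1, Gad2, Slc32a1 and the DLX genes.

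In Cux2 KO neurons at E19 the direction for Npy was the opposite in females, though no gene passed the test. The whole-gene counts of Cux2 were at 346 ± 54.0 CPM in Cux2 KO and 448 ± 57.5 in WT females, and at 349 ± 59.7 and 408 ± 74.1 in males (n = 4 each). Npy was at 42.7, 30.5, 29.6 and 55.6 CPM in Cux2 KO females, all above the WT females. Sst was at 3.62, 9.45, 4.63 and 4.53 CPM in Cux2 KO females and at 0.179, 1.31, 1.14 and 2.64 in WT females, also without overlap. The log2FC was 1.29 for Npy (SE 0.362, unadjusted p = 0.00337, adjusted p = 0.644) and 2.07 for Sst (SE 0.532, unadjusted p = 0.00185, adjusted p = 0.618) by edgeR. These 2 of 9 genes were the ones without overlap, beside 3.14% of all genes, and 0.0287% of all genes were DEGs. DESeq2 without a prior on fold changes called Sst, and edgeR without a filter on low counts called both. Over the settings run, 5 to 46 of all genes were DEGs. In males, Npy was at 4.82, 31.5, 45.5 and 61.1 CPM in Cux2 KO, a wider spread than in the WT males, and none of the 9 genes had an unadjusted p under 0.05 or was called by DESeq2, beside 0.121% DEGs in all genes. With both sexes together Sst had a log2FC of 1.41 (adjusted p = 0.350) and no member was a DEG, beside 0.101% of genes, and none was called by DESeq2. The difference of the Cux2 KO effect between the sexes did not pass for any gene at E19 (0% of genes, 694 with an unadjusted p under 0.05, 0 by DESeq2).

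Set against each other at E19, Cux1 KO and Cux2 KO neurons differed in Npy. Npy averaged 11.9 ± 4.41 CPM among females and 14.2 ± 3.77 among males of Cux1 KO, and 39.6 ± 12.2 and 35.7 ± 23.9 in Cux2 KO (n = 4 each). The log2FC was -1.54 (SE 0.321, adjusted p = 0.00950, edgeR with sex as a covariate), and 15 of the 16 libraries lay on their own side, the exception being a Cux2 KO male at 4.82 CPM. Npy was the 1 DEG among the 9 tested genes, beside 3% of all genes. The comparisons of the 2 mutants with WT share the WT libraries, and their values are given above side by side for that reason. Among the relatives of Npy, its receptor gene Npy1r was also lower in Cux1 KO (log2FC -1.30, adjusted p = 0.0288), which made 2 of 3 tested genes of that list. Of the 14 genes for neuropeptide processing and dense-core vesicles 5 were lower and none higher. They were the prohormone convertase gene Pcsk2 (log2FC -1.62, adjusted p = 0.00231), the proSAAS gene Pcsk1n (-0.61), the granin gene Chgb (-0.50) and the vesicle membrane genes Ptprn (-0.79) and Ptprn2 (-0.84). Of the 14 tested interneuron subtype genes 3 were lower, namely Npy, Cck (-1.64) and Reln (-1.01). The DLX list had 0 of 6 DEGs and the list for GABA synthesis and uptake 0 of 7. The median log2FC was -0.51 for the dense-core vesicle list, -0.79 for the subtype genes and -0.18 for the DLX list, beside -0.01 for all genes.

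**Figure D3:**
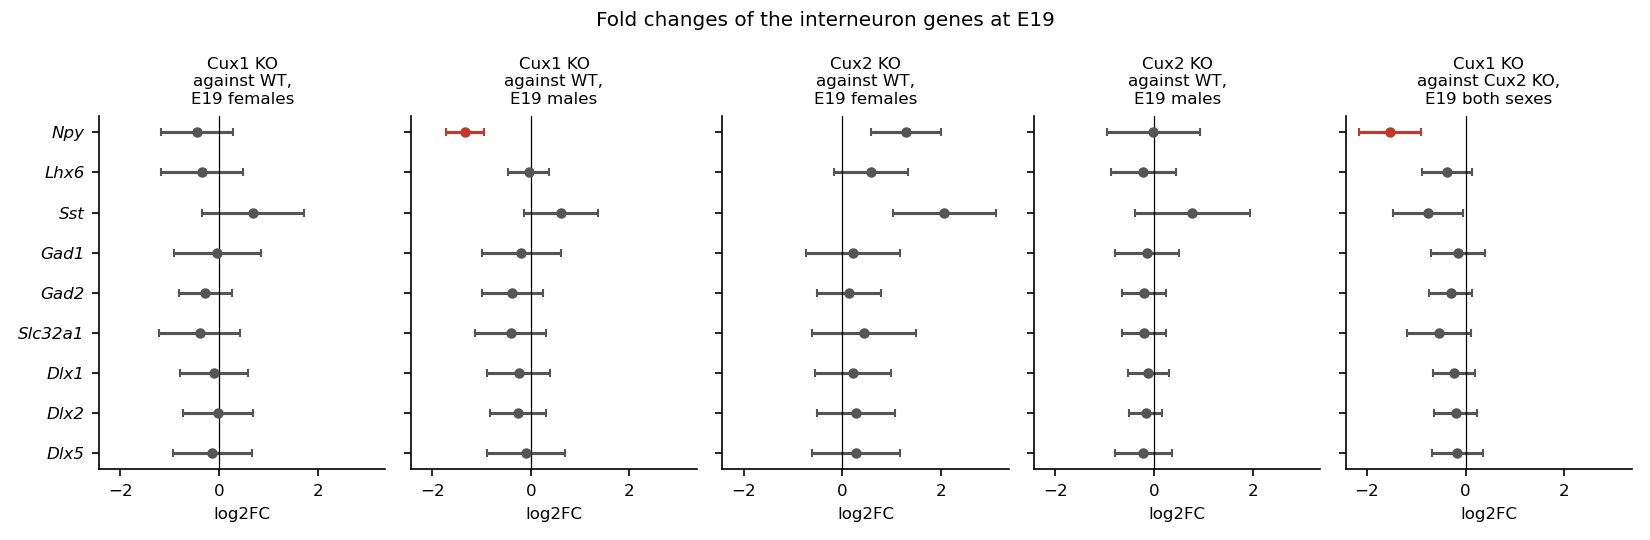
log2FC (x axes) of the 9 tested genes in the comparisons at E19, with bars for the 95% interval from edgeR's fit, and DEGs in red. Npy was the 1 gene in red, at -1.33 for Cux1 KO against WT in males and at -1.54 for Cux1 KO against Cux2 KO.

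Between the sexes of WT, Npy was higher in males at E19 and P4, and at P4 several GABA and DLX genes were higher in females, none of them past the adjusted threshold. At E19, Npy averaged 16.2 ± 8.54 CPM among females and 35.3 ± 7.42 among males (n = 4 each), without overlap (log2FC -1.13, unadjusted p = 0.00559, adjusted p = 0.992, edgeR). Oligodendrocyte markers also stood apart between the sexes, at 488 to 585 CPM in females and 594 to 729.99 in males, and their part was not tested. It was the 1 gene of 9 without overlap, beside 2.46% of all genes, and none was a DEG by edgeR or DESeq2, beside 0.0461% of genes. At P4 the females had 8.54, 12.8 and 4.24 CPM and the males 17.0, 13.8 and 58.9. Dlx2, by contrast, was at 165, 196 and 371 CPM in females and 85.3, 139 and 119 in males. In all, 6 of 8 tested genes were without overlap, with Gad1, Slc32a1, Dlx1, Dlx2 and Dlx5 higher in females and Npy lower, beside 14.9% of all genes. Npy (-1.75), Dlx1 (1.13), Dlx2 (1.15) and Dlx5 (0.74) had an unadjusted p under 0.05. Without 1 library, Npy ranged from -2.13 to -0.83 and Dlx1 from 0.72 to 1.54. Dlx2 then ranged from 0.69 to 1.36 and Dlx5 from 0.45 to 0.89. The markers of other cells differed between the same libraries, with endothelial and mural markers at 132 to 200.3 CPM in females and 322 to 516 in males, and oligodendrocyte markers at 626 to 1787 and 2142 to 3028, and their part in these differences was not tested. The smallest adjusted p was 0.675, and no gene of the table was a DEG by edgeR (0%, 1398 with an unadjusted p under 0.05), while DESeq2 called none of the 8. At P7 the 2 females had 38.1 and 3.94 CPM of Npy and the 3 males 14.6, 10.3 and 1.55, and no member had an unadjusted p under 0.05 or was called by DESeq2, beside 0.0247% DEGs in all genes.

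In Cux2 KO neurons at P4, Npy, Lhx6 and Sst were higher than in WT females, and GABA and DLX genes were lower, again without passing the adjusted threshold. Npy was at 61.4, 13.8 and 108 CPM in Cux2 KO females, each above the highest WT female at 12.8. Lhx6 was at 5.54, 2.16 and 8.67 CPM against 1.14, 0 and 0.221, and Sst at 38.6, 5.32 and 42.9 against 2.32, 5.21 and 0.177. Dlx2 was at 116, 119 and 79.9 CPM in Cux2 KO females, each below the lowest WT female at 165. The log2FC was 2.84 for Npy (SE 0.753), 3.58 for Lhx6 (SE 1.41), 3.48 for Sst (SE 1.13), -1.21 for Dlx2 (SE 0.336), -0.95 for Dlx5 (SE 0.390) and -1.88 for Slc32a1 (SE 0.729). The adjusted p of these 6 ran from 0.561 to 0.666 by edgeR, and each had an unadjusted p under 0.05. Lhx6 passed the expression filter only through the Cux2 KO libraries, so its values here are a description only. Without 1 library, the log2FC ranged from 2.14 to 3.31 for Npy and from 2.96 to 5.76 for Lhx6. It ranged from 2.95 to 4.48 for Sst and from -1.41 to -0.76 for Dlx2. In this comparison 7 of 9 genes were without overlap (3 higher and 4 lower in Cux2 KO), beside 15.7% of all genes, and 0% of genes were DEGs, with 1443 at an unadjusted p under 0.05. DESeq2 without a prior called Npy, Sst and Dlx2, and with its prior Npy alone. Over the settings run, DESeq2 among them, 0 to 183 of all genes were DEGs. Endothelial and mural markers also stood apart, at 403 to 489 CPM in Cux2 KO females and 132 to 200.3 in WT females, and their part was not tested.

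The targeted Cux2 was not lower in whole-gene counts at P4, at 38.0 ± 12.01 CPM in Cux2 KO against 33.5 ± 4.82 in WT females and 44.5 ± 15.2 against 38.2 ± 10.00 in males (n = 3 each), which gives no check of the genotype there. In the males at P4 no gene passed either. Lhx6 was at 2.47, 10.7 and 0.878 CPM in Cux2 KO and at 0 in the 3 WT libraries, which makes it at least 60.2-fold higher, or 21.5-fold without Cux2 KO replicate 2 (against a floor of 3 counts, the most that a library at 0 may hide, in the WT library where that is the highest CPM). Lhx6 was the 1 gene of 9 without overlap, beside 12.6% of all genes, with an adjusted p of 0.332 by edgeR and a call by DESeq2. Over the settings run, 0 to 368 of all genes were DEGs. Lhx6 passed the expression filter only through the Cux2 KO libraries, and these WT males were part of the choice of genes. Its call is therefore a description only. Npy was at 56.6, 77.9 and 8.28 CPM and Sst at 28.8, 24.01 and 2.09 in Cux2 KO males, and both overlapped WT males. No gene was a DEG by edgeR in males (0%, 1136 with an unadjusted p under 0.05). With both sexes in one fit, Npy had a log2FC of 1.78, Gad2 of -0.78 and Dlx5 of -0.89, with adjusted p from 0.750 to 0.846. Lhx6 had an adjusted p of 0.517, with 4 of the 6 WT libraries at 0, and was called by DESeq2, while no member was a DEG by edgeR, beside 0.0528% of genes. This call of Lhx6 is a description only, for the reasons given for the males. Over the settings run, 2 to 112 of all genes were DEGs. The difference of the Cux2 KO effect between the sexes did not pass edgeR's interaction test for any gene at P4 (0%, 1590 with an unadjusted p under 0.05, 280 called by DESeq2, none of them a member).

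In the 2 Cux1 KO libraries at P4, Npy, Lhx6, Sst and Rxfp1 were above every WT and Cux2 KO male library, and Gad1, Slc32a1, Dlx1, Dlx2 and Dlx5 were below every one. These are the values the genes were chosen on, and they are described without a test. The whole-gene counts of the targeted Cux1 were not lower there, at 84.5 and 179 CPM against 90.5, 161 and 107 in WT males, so they give no check of the genotype. Npy was at 97.0 and 148 CPM, against 17.0, 13.8 and 58.9 in WT males and 56.6, 77.9 and 8.28 in Cux2 KO males. Lhx6 was at 10.9 and 61.7 CPM, at least 466-fold higher than in WT males by the mean and at least 140.1-fold without replicate 2, and the lower of the 2 was just above the highest Cux2 KO male at 10.7. Sst was at 49.1 and 48.0 CPM, against 10.1, 3.27 and 23.2 in WT males. Sst thus differed little between the 2 libraries, and Lhx6 by several fold.

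Rxfp1, the receptor gene, was detected at P4 almost only in the Cux1 KO libraries. It was at 15.4 and 7.97 CPM there and at 0 in the other 12 libraries of P4 but 1, a Cux2 KO female at 0.0974 CPM, which makes it at least 150-fold higher than in WT males. At E19 the highest Rxfp1 level was 1.37 CPM, in a WT female, and at P7 1 of 5 WT libraries, a female, had 4.25 CPM. Among its relatives, the relaxin gene Rln1 had 5.51 ± 7.79 CPM in the Cux1 KO libraries, all of it from 1 of the 2, and 0 in WT males.

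The genes for making and packaging GABA were low in the same libraries. Gad1 was at 4.79 and 4.25 CPM, against 44.4, 54.3 and 30.4 in WT males and 57.9, 19.4 and 18.1 in Cux2 KO males. Gad2 was at 13.3 and 28.9 CPM, against 82.9, 112 and 53.8 in WT males, and overlapped the Cux2 KO males at 78.1, 23.0 and 39.8. Slc32a1 was at 0 in both libraries, so that WT males, at 0.942, 0.571 and 0.704 CPM, were at least 4.83-fold higher.

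The DLX genes were low as well, and in Dlx2 and Dlx5 the 2 libraries differed from each other. Dlx1 was at 4.996 and 1.60 CPM, against 89.1, 175 and 92.3 in WT males. Dlx2 was at 0.102 and 17.5 CPM against 85.3, 139 and 119, and Dlx5 at 0.051 and 10.7 against 49.1, 81.8 and 82.4. Dlx6os1 followed Dlx2 and Dlx5, at 0.102 and 23.2 CPM against 110, 241 and 218 in WT males. The library with almost no Dlx2 and Dlx5 was the one with the higher Dlx1, and it was also the one with fewer counts (19499125 against 40421655).

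Across the table, the Cux1 KO libraries at P4 differed from WT males in many genes besides these. All 10 genes had an absolute log2FC over 1, 4 higher (Npy 2.04, Sst 2.00 and, against 0, Lhx6 and Rxfp1) and 6 lower (Gad1 -3.27, Gad2 -2.002, Dlx1 -5.20, Dlx2 -3.72, Dlx5 -3.74 and, at 0, Slc32a1). Without 1 library, Npy ranged from 1.70 to 2.99 and Sst from 1.56 to 2.87. Gad2 then ranged from -2.63 to -1.57 and Dlx1 from -6.26 to -4.56. An absolute log2FC over 1 was found in 39.5% of all genes (13.1% higher and 26.4% lower), and 41.4% of all genes were without overlap. Against Cux2 KO males, Npy had a log2FC of 1.32, Lhx6 of 2.88, Sst of 1.36, Gad1 of -2.86 and Gad2 of -1.22. It was -5.18 for Dlx1, -3.55 for Dlx2 and -2.93 for Dlx5. Without 1 library, Npy ranged from 0.81 to 1.84, Sst from 0.83 to 1.87 and Gad2 from -1.85 to -0.64. Lhx6 then ranged from 1.20 to 4.34, Gad1 from -3.16 to -2.09 and Dlx1 from -6.26 to -4.55. Dlx2 ranged from -9.89 to -2.59 and Dlx5 from -9.50 to -1.95. Their lower ends rest on 1 Cux1 KO library under the floor of 3 counts. Against Cux2 KO males 9 of 10 genes were without overlap, beside 37.8% of genes past the fold and 45.4% without overlap. The 2 libraries had the fewest detected genes of the series, 17049 and 19115, against 20844 to 23736 in the other libraries of P4. Their markers of other cells also stood apart. Endothelial and mural markers summed to 0.204 and 90.1 CPM, with Kcnj8 at 0 in both, against 322 to 516 in WT males, while excitatory markers summed to 1858 and 2470.8 CPM, above the 1107 to 1420 of WT males. Neurod2, a factor of excitatory neurons, was at 91.3 ± 0.435 CPM against 18.1 ± 5.92. The part of cell composition and depth in these values was not tested.

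**Figure D4:**
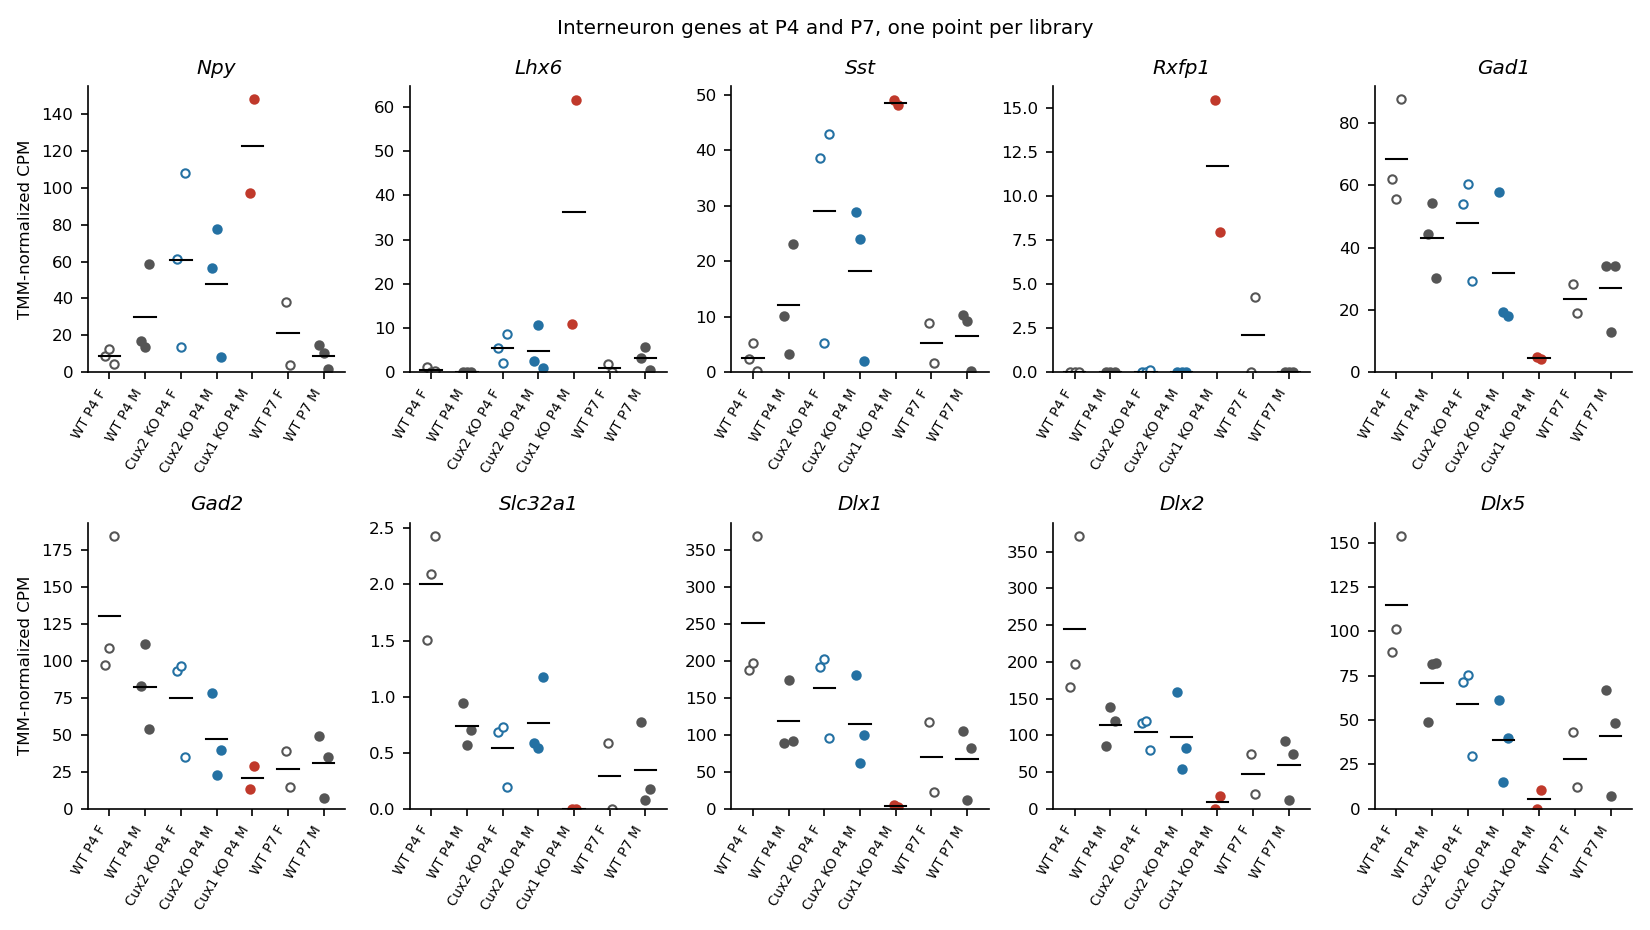
TMM-normalized CPM (y axes, linear, each with its own scale) of the 10 genes in the 19 libraries at P4 and P7, by genotype, stage and sex (x axis). Points are libraries, open for females and filled for males, and lines are group means. The 2 Cux1 KO libraries were the highest males for Npy (97.0 and 148 CPM), Lhx6, Sst and Rxfp1 and the lowest P4 libraries for Gad1 and the DLX genes.

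Other genes of the interneuron lists in the Cux1 KO libraries at P4 lay on both sides, and each count below stands beside 13.1% of all genes higher and 26.4% lower by the same fold. Of 22 interneuron markers, 4 were higher by the fold threshold (Npy, Lhx6, Sst and Maf) and 14 lower, with a median log2FC of -2.24 beside -0.18 over all genes. Maf, a factor of the medial eminence lineage that acts after Lhx6, was at 20.5 ± 0.383 CPM against 2.22 ± 1.25 in WT males. Of the 10 tested factors of that lineage, 3 were higher (Lhx6, Maf and Satb1) and 1, Erbb4, was lower (19.8 ± 17.0 against 50.9 ± 6.198 CPM), and Nxph1 was at 120 ± 6.92 against 86.9 ± 39.6. Of the 7 caudal eminence factors none was higher and 4 were lower, among them Sp8 (4.89 ± 6.77 against 258 ± 69.0 CPM) and the serotonin receptor gene Htr3a (0.124 ± 0.104 against 12.8 ± 10.9). Of the 8 ventral telencephalic factors 6 were lower, with Sp9 at 2.42 ± 3.28 against 45.5 ± 19.5.

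Of 19 tested interneuron subtype genes 7 were higher and 6 lower, with a median log2FC of -0.21. Cck was at 33.2 ± 4.14 CPM in Cux1 KO and 3.37 ± 1.26 in WT males, Crhbp, which encodes a binding protein of corticotropin-releasing hormone, at 6.09 ± 2.50 against 0, and Npy1r at 11.4 ± 2.81 against 1.33 ± 1.56. Vip, a peptide of caudal eminence interneurons, was at 0 in both libraries against 4.23 ± 3.22 in WT males. Lamp5, Tac2, Crh and Chodl of the same list were also at 0 in both, and Tac2 in the WT males too. Of the 14 genes for neuropeptide processing 5 were higher and none lower by the fold threshold, with Pcsk1n at 278 ± 47.5 against 103 ± 16.4 CPM. The median log2FC was 0.90 for this list, 0.38 for the medial eminence factors, -1.86 for the caudal ones and -3.89 for the DLX list.

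Among libraries of one group, the GABA and DLX genes moved together at E19. There (24 libraries, deviations of log2 CPM from the mean of each of 6 groups), Gad1, Gad2, Slc32a1, Dlx1, Dlx2 and Dlx5 had pairwise Pearson r of 0.84 to 0.97, the highest for Dlx1 and Dlx5 (r = 0.969, Spearman rho = 0.896, and r = 0.952 without the 2 libraries farthest from the median of Dlx1). Npy had r of -0.44 to -0.17 with the same 6 genes, Lhx6 of -0.08 to 0.28 and Sst of 0.16 to 0.46. Lhx6 and Sst had r = 0.773 (rho = 0.603, r = 0.671 without 2 libraries), Npy and Sst r = 0.422 (rho = 0.114, r = 0.153 without 2) and Npy and Lhx6 r = 0.387 (rho = 0.270, r = 0.191 without 2), so the relations of Npy with Sst and Lhx6 at E19 rest on those libraries. At P4 and P7 (19 libraries, 7 groups), Npy and Sst had r = 0.910 (rho = 0.842, r = 0.871 without 2), Npy and Lhx6 r = 0.690 (rho = 0.636, r = 0.595 without 2) and Lhx6 and Sst r = 0.522. With the GABA and DLX genes Npy had r of -0.15 to 0.14 there, Lhx6 of -0.13 to 0.20 and Sst of -0.27 to 0.05. Dlx2 and Dlx5 kept r = 0.986 (r = 0.965 without the 2 libraries farthest from the median of Dlx2), whereas Dlx1 and Dlx2 had r = 0.250 (rho = 0.560). In the 2 Cux1 KO libraries at P4, on which the genes were chosen, Dlx2 was at 0.102 (under the floor) and 17.5 CPM. Dlx1 was at 4.996 and 1.60 CPM in the same order. The part of these libraries in the postnatal r of the DLX genes was not tested. These are descriptions over libraries, and genes within a library share its depth, its RNA and its mixture of cells.

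**Figure D5:**
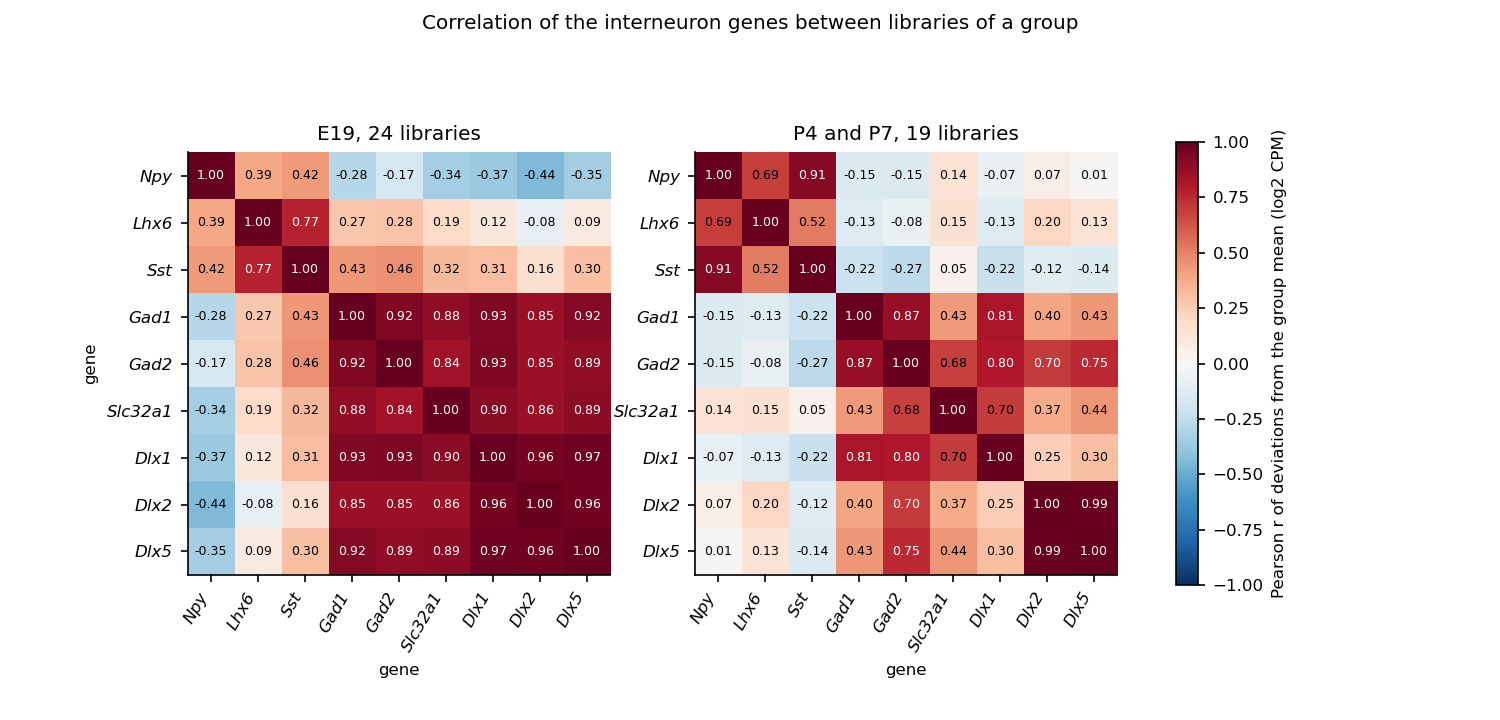
Pearson r between the 9 genes with counts in most libraries (both axes list genes), from deviations of log2 CPM from the group mean, at E19 (left) and at P4 and P7 (right), with red for positive and blue for negative r. The block of Gad1, Gad2, Slc32a1 and the DLX genes at E19 had r of 0.84 to 0.97, and Npy and Sst had r = 0.91 at P4 and P7.

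The high libraries of the GABA and DLX set at E19 can be named. In WT females, replicate 3 had 126 CPM of Gad1, 293 of Dlx1 and 252 of Dlx2, against 22.4 to 43.2, 73.5 to 113 and 71.2 to 85.2 in the other 3. Among the Cux2 KO females, replicate 2 was the highest for the same genes, with 121 CPM of Gad1 and 281 of Dlx1. In WT males it was replicate 2 (207 CPM of Dlx1) and in Cux1 KO males replicate 3 (195 CPM). Npy in these 4 libraries was at 4.98, 30.5, 28.0 and 11.2 CPM, the lowest of its group in 3 of them and the second lowest in the Cux2 KO females.

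The sequence just upstream of the start of the main annotated transcript was read from GRCm39 for Gad1, Gad2 and Dlx2, which moved together at E19. Each is shown from the 5′ end on the strand of its gene, with every CCAAT, or ATTGG where the match is on the other strand, in capitals.
Gad1 (chr2:70391353-70391602, plus strand): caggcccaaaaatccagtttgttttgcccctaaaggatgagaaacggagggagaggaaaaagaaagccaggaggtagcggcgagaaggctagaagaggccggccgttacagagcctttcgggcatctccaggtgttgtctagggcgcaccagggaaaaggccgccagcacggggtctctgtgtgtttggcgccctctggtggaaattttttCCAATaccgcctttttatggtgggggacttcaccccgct
Gad2 (chr2:22511612-22511861, plus strand): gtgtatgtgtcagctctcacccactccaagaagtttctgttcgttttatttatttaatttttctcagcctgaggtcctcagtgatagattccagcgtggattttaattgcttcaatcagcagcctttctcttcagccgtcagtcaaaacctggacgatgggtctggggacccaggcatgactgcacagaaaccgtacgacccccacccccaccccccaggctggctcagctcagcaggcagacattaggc
Dlx2 (chr2:71377103-71377352, minus strand): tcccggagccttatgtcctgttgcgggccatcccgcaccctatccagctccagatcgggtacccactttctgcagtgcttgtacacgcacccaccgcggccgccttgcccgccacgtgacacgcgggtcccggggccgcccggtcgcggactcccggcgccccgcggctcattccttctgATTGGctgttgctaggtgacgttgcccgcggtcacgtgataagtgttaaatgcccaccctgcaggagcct
The letters CCAAT (either strand) occurred in the 250 bases before the start in 6 of the 10 genes (Npy, Lhx6, Gad1, Dlx1, Dlx2 and Dlx5) and in 36.5% of 21770 protein-coding genes. The homeodomain core TAATTA was found in Sst alone, at position -180, against 5.18% of all, the CUX motif core ATCGAT in none against 0.781%, and the cAMP response element TGACGTCA in none against 1.69%. All but CCAAT read the same on both strands, and no gene held more than 1 of these motifs. Annotated exon filled the 250 bases of the window in Npy (of Npy itself) and in Slc32a1 (of Gm14204). It covered 179 bases in Rxfp1, 130 in Sst, 92 in Dlx1 (of Dlx1as) and 65 in Lhx6, and none in Gad1, Gad2, Dlx2 and Dlx5. A match is a description of letters in this window only.

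Genes with the pattern most like that of Npy, Lhx6 and Gad2 were found by Pearson r of the same deviations over all 43 libraries, among 17008 genes with a mean of at least 1 CPM. For Npy they were Sst (r = 0.763), the potassium channel gene Kcnj2 (0.752), the proteoglycan gene Spock1 (0.718), the histone deacetylase gene Hdac5 (0.704) and Sybu (0.695), which encodes a kinesin adaptor. For Gad2 they included Dlx1as (0.902), Btg1 (0.887), Cdca7 (0.865) and Dlx6 (0.849), of which Dlx1as and Dlx6 are DLX transcripts. For Lhx6 they were Tor2a (0.715), Kifc2 (0.676), Zfp64 (0.675), 3110040N11Rik (0.667) and Neurl3 (0.655), none of which is on an interneuron list used here. These lists depended on the measure and the libraries. Of each list of 5, 2 were also among the 5 by Spearman rho, and at most 1 was among the 5 by Pearson r over the 24 libraries of E19, where Sst (0.773) was among the 5 for Lhx6.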

How the data were processed

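RNA-seq libraries had been made with a low-input kit from sorted GFP+ cells and sequenced as single reads of 60 nt. The authors aligned reads to GRCm39 with HISAT2, removed duplicates and counted whole genes with featureCounts. They deposited raw counts per gene for all 43 libraries, the unit used here. Tool versions and the strand setting are not given in the sources used here. Each column was matched to its library by name.

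Genes passing edgeR's expression filter were tested within each comparison with edgeR 4.0.16 in R 4.3.3 (TMM scaling, quasi-likelihood F test, two-sided, Benjamini-Hochberg adjustment over all tested genes). Comparisons over both sexes had sex as a covariate. DEGs passed an adjusted p of 0.05 and an absolute log2FC of 0.5 at E19 or 1 at P4 and P7. The alternatives were DESeq2 1.42.0 with and without a prior on fold changes, its size factors, no low-count filter, a single fit per stage, the replicate number as a block, and leaving out each library. Scripts were tested on simulated data. Folds against 0 used a floor of 3 counts per library, which covers counting error only.

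The 10 genes and all gene lists were chosen with earlier results of these data known. The text names the 10 genes, DEGs of the lists, and the 5 genes most like Npy, Lhx6 and Gad2. Other list genes named at P4 were chosen after their values were seen. Some list genes and sequences are not reported here.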

Additional observations from a re-analysis of the deposited data

Results flagged for a closer look

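Single libraries stood far from the other 3 of their group at E19 by Dixon's criterion in 11 of 60 gene and group pairs. Chance gives about 1 in 20 for normally distributed values without ties at 0, which leaves out the 3 pairs of Rxfp1. The GABA and DLX genes moved together between libraries at E19, so the flagged pairs are not independent and their share cannot be compared with that rate. In Cux1 KO males, replicate 3 had 79.8 CPM of Gad2 (others 27.0 to 35.7), 17.7 of Slc32a1 (4.52 to 6.32) and 195 of Dlx1 (70.3 to 82.4). In WT males, replicate 2 had 90.9 CPM of Gad2 (43.6 to 47.3) and 207 of Dlx1 (93.4 to 102). Slc32a1 was at 40.3 CPM in Cux2 KO female replicate 2 (7.76 to 11.1) and Dlx2 at 252 CPM in WT female replicate 3 (71.2 to 85.2). Sst was at 6.13 CPM in Cux1 KO male replicate 4 (3.09 to 3.49). Rxfp1 was at 0.439 CPM in Cux1 KO female replicate 3, from 8 counts, at 0.0613 in Cux1 KO male replicate 4 and at 0.0730 in Cux2 KO female replicate 4, from 1 count each, and at 0 in the other libraries of these groups.

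The difference of Npy between Cux1 KO and WT males had opposite signs at the 2 stages, with a log2FC of -1.33 at E19 and 2.04 at P4. At both stages the groups were without overlap. The difference between the stages was not tested, the P4 values were among those the genes were chosen on, and the allele and the plasmids also differed between the stages.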

How the results depend on the processing

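Directions were compared for genes with an unadjusted p under 0.05 and for the untested comparisons of the Cux1 KO libraries at P4. Among these no direction was reversed by any alternative run, and for other genes the direction was not compared. The counts below are of the 10 genes called. For Cux1 KO against WT males at E19, the count of 1 became 0 with all groups of the stage in one fit (Npy, adjusted p = 0.460) and was 0 to 1 without single libraries. With both sexes it went from 0 to 1 without the low-count filter and was 0 to 1 without single libraries (1 without WT female replicate 3, where Npy had an adjusted p of 0.0105). DESeq2 without a prior gave 1 for Cux2 KO against WT females at E19, 3 at P4, 1 for the males at P4, 1 for both sexes at P4 and 4 for WT P7 against P4, where edgeR gave 0. The calls of Lhx6 among these, in the males and both sexes at P4 and in WT P7 against P4, are descriptions only. With its prior DESeq2 gave 1 for Cux2 KO females at P4, and edgeR without the filter gave 2 for Cux2 KO females at E19. For Cux1 KO against Cux2 KO at E19 the count was 1 to 2 without single libraries (2 without Cux2 KO male replicate 1). WT P7 against P4 gave 0 to 1 (Gad2, without WT P4 male replicate 3 or WT P7 male replicate 1) and WT P4 against E19 gave 3 to 4.

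Replicate numbers were shared between groups, but in no comparison with 3 or more pairs, within a sex or over both, did every pair of equal number correlate above 0.1, so they are only numbers. For Cux1 KO against Cux2 KO at E19 the 8 pairs had r from -0.21 to 0.03. With the replicate number as a block, Npy in Cux1 KO against Cux2 KO at E19 had a log2FC of -1.44 (adjusted p = 0.0596) and the count was 0, and Sst in WT P4 against E19 had an adjusted p of 0.153.

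The number of DEGs over all genes moved more than that of the 10 genes. It was 17 for Cux1 KO males at E19 (5 to 113 over the settings, 0 to 16 without single libraries), 10 for the females (7 to 63), 43 for both sexes (28 to 143), 534 for Cux1 KO against Cux2 KO at E19 (310 to 839) and 480 for WT P7 against P4 (179 to 1333). For Cux2 KO against WT it was 5 in females (5 to 46), 21 in males (10 to 93) and 18 for both sexes (17 to 70) at E19, and 0 in females (0 to 183), 0 in males (0 to 368) and 11 for both sexes (2 to 112) at P4. For WT sexes it was 0 at P4 (0 to 238) and 5 at P7 (0 to 74), and for the Cux2 KO effect by sex at P4 it was 0 (0 to 280). In the Cux1 KO libraries at P4, leaving out single libraries moved the log2FC against WT from -10.1 to -2.76 for Dlx2 and from -10.4 to -2.77 for Dlx5. The lower ends of these 2 ranges rest on 1 Cux1 KO library under the floor of 3 counts and are not exact folds. The cause of these changes was not tested. Depth limits what can be said of Rxfp1, which was at 0 in most libraries, and of Slc32a1 and Lhx6 in the libraries where they were at 0.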
